A study of Mus musculus with 3 samples.

Results

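Most microRNA (miRNA) reads of a given precursor arm begin at 1 nucleotide, and a minority begin a few nucleotides before or after it. These shifted reads were collected from mouse liver, and the arms described were chosen by the summed number of them. Inserts of at least 18 nt that matched an annotated precursor without a mismatch were kept, and a read was counted as shifted when it did not begin at the most frequent start of its arm (the main start), taken over the 3 libraries summed. Of 5291379 exact arm reads, 231925 were shifted. Of the 399 arms with a main start, 351 had at least 1 shifted read, and the 83 arms with 100 or more are described here. These 83 held 97.8% of the shifted reads. Because the shifted reads themselves chose the arms, their number and their shares are descriptions and not tests.

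The livers came from C57BL/6 mice, a standard inbred strain, and were taken 4 weeks after the animals had received a self-complementary AAV9 vector (scAAV9). In mock that vector was without a decoy, and in the other groups it expressed a Tough Decoy against miR-122 (TuD-miR-122) or a Tough Decoy against let-7 (TuD-let-7). A Tough Decoy is a transcribed hairpin RNA that holds exposed binding sites for its target miRNA. All 3 groups received the vector, so no library is free of it. With 1 library for each group, differences between groups have no replicate behind them. The labels give no age, sex or number of animals for a library. All intervals are 95% Clopper-Pearson intervals and cover counting error only.

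Sequencing depth was 3450317 reads for mock, 3681585 for TuD-miR-122 and 2066892 for TuD-let-7, of which 2186970, 1935988 and 1168421 were exact arm reads. A list of 5 miRNAs typical of hepatocytes made up 46.1%, 32.2% and 71.1% of the exact arm reads. That list holds miR-122-5p, the target of one decoy, and its other 4 members made up 9.63%, 10.2% and 7.05%. Reads with 3′ bases that do not match the precursor are not exact arm reads. In miR-122-5p they were most frequent with TuD-miR-122. A list of 3 muscle miRNAs made up 0.478% in mock against 0.0571% and 0.00693% in the TuD-miR-122 and TuD-let-7 libraries, and a list of 4 pancreas miRNAs 0.1195% with TuD-miR-122 against 0.00718% in mock and 0.00531% with TuD-let-7. The libraries differed in the muscle and pancreas markers as well as in treatment, and the part of this in the results below was not tested. In bulk tissue, fewer cells of a type and less RNA per cell cannot be told apart.

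An miRNA is cut from its hairpin in a pair of steps. Drosha makes the outer cut, which sets the 5′ end of the 5p arm, and Dicer cuts near the loop, which sets the 5′ end of the 3p arm. The seed, bases 2 to 8 counted from the 5′ end, pairs with target mRNAs, so that a read with another start carries another seed. Such variants are called 5′ isomiRs.

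The arms below are printed because they held the largest numbers of shifted reads, because they show a distinct kind of shift, or because later comparisons turn on them. For each start, the most frequent insert is given from 5′ to 3′ as the files have it, with T for U and the seed in capitals. The number in a name is the distance in nucleotides from the main start, negative for upstream.
miR-101b-3p, main: tACAGTACtgtgatagctgaag
miR-101b-3p, -1: gTACAGTActgtgatagctga
miR-101a-3p, main: tACAGTACtgtgataactga
miR-101a-3p, -1: gTACAGTActgtgataactga
miR-192-5p, main: cTGACCTAtgaattgacagcc
miR-192-5p, +1: tGACCTATgaattgacagccagt
miR-126a-3p, main: tCGTACCGtgagtaataatgcg
miR-126a-3p, +1: cGTACCGTgagtaataatgcg
miR-142a-3p, main: tGTAGTGTttcctactttatgga
miR-142a-3p, +1: gTAGTGTTtcctactttatgga
miR-142a-3p, +2: tAGTGTTTcctactttatgga
miR-142a-3p, +3: aGTGTTTCctactttatgga
miR-142a-5p, main: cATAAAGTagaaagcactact
miR-142a-5p, -2: cCCATAAAgtagaaagcactac
miR-10a-5p, main: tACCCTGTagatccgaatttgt
miR-10a-5p, +1: aCCCTGTAgatccgaatttgtg
miR-203-3p, main: gTGAAATGtttaggaccactag
miR-203-3p, +1: tGAAATGTttaggaccactag
miR-140-3p, main: aCCACAGGgtagaaccacggac
miR-140-3p, -1: tACCACAGggtagaaccacgga
let-7g-5p, main: tGAGGTAGtagtttgtacagtt
let-7g-5p, +1: gAGGTAGTagtttgtacagtt
let-7a-5p, main: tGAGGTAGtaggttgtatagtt
let-7a-5p, +1: gAGGTAGTaggttgtatagtt
miR-26b-5p, main: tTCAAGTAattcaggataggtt
miR-26b-5p, +1: tCAAGTAAttcaggataggtt
miR-148a-3p, main: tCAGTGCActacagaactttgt
miR-148a-3p, +1: cAGTGCACtacagaactttgt
miR-27b-3p, main: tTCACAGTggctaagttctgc
miR-27b-3p, +1: tCACAGTGgctaagttctgc

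In every library the shifted reads were a small share of the whole. They made up 4.21% (4.18 to 4.23) of the exact arm reads in mock, 5.16% (5.13 to 5.20) with TuD-miR-122 and 3.42% (3.39 to 3.45) with TuD-let-7. miR-122-5p, the dominant miRNA of hepatocytes, had 98.7% of its reads over the 3 libraries at its main start. It made up 36.4%, 22.1% and 64.1% of the exact arm reads. Reads with unmatched 3′ bases are left out of these counts. With up to 3 such bases allowed, the main start of miR-122-5p had 1010601 reads in mock, 845300 with TuD-miR-122 and 966481 with TuD-let-7. Of these, 22.3%, 50.1% and 23.4% had such bases. Without miR-122-5p the shifted shares were 5.81%, 6.23% and 7.51%, so that the TuD-let-7 library changed from the lowest to the highest. For this reason shares are compared arm by arm below, and where 3 values are given without names they stand in the order mock, then TuD-miR-122, then TuD-let-7.

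A few arms carried most of the shifted reads. The 5 with most, miR-101b-3p, miR-192-5p, miR-122-5p, miR-101a-3p and miR-122-3p, held 64.8% of them. The share of an arm's exact reads that was shifted ranged over the 83 arms from 0.621% to 91.4%, with a median of 3.60%. It was under 3% in 38 arms, at least 10% in 34, at least 30% in 18 and at least 50% in 5. Just above the limit of 100 shifted reads lay miR-322-3p with 101, miR-1a-3p with 102 and miR-29c-5p with 103, and just below it miR-425-5p with 98 and miR-136-5p and miR-222-3p with 95 each.

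**Figure D1:**
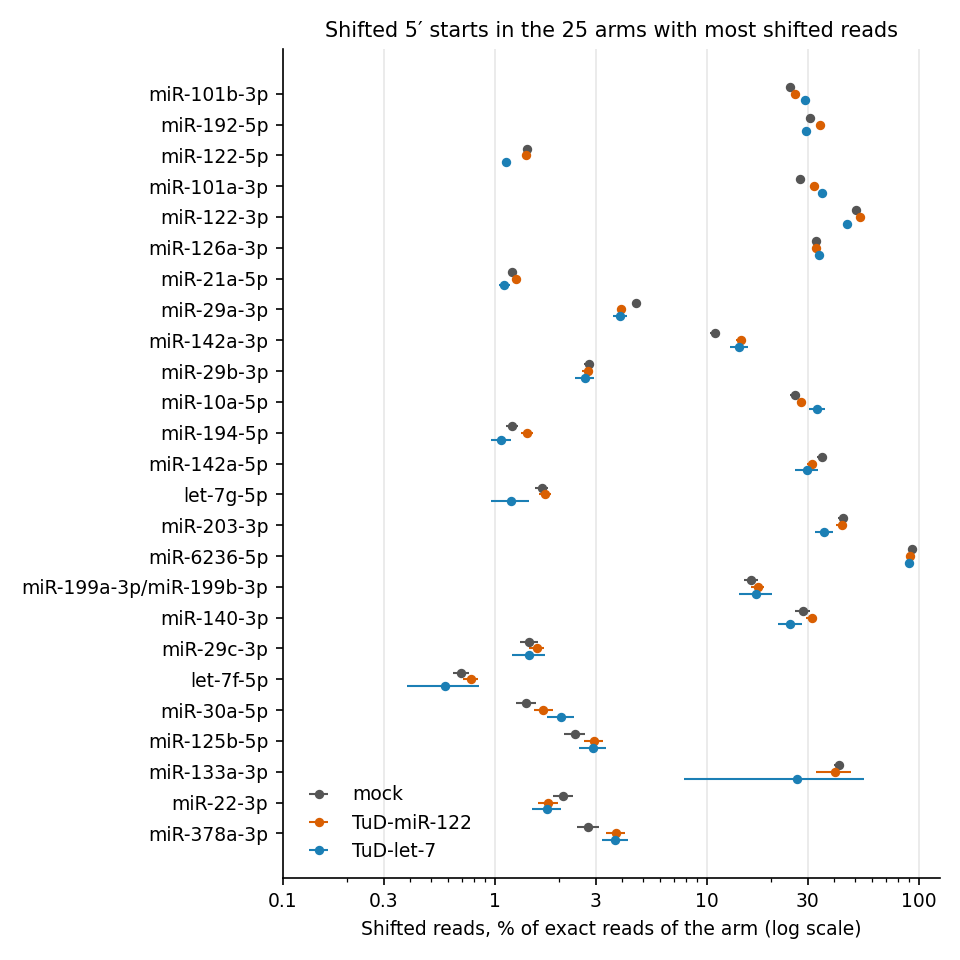
Shifted reads as a percentage of the exact reads of the arm (x axis, log scale) for the 25 arms with most shifted reads (y axis), 1 point per library with its 95% counting interval. The arms spread from under 1% to over 90%, while the 3 libraries of 1 arm lie close together in most rows, for example at 32.7%, 32.8% and 34.0% for miR-126a-3p.

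Nearly all shifts were by 1 nucleotide. Reads that began 1 nt downstream made up 60.4% of all shifted reads and those 1 nt upstream 34.4%. The most frequent shift was +1 in 56 of the 83 arms, -1 in 21, +2 in 3 and -2 in 2, and in 1 arm it lay outside the range of 5 nt on the flank. Loop reads, which begin more than 5 nt from the main start on the side of the loop, were 0.173% of the shifted reads, and flank reads, which begin as far away on the other side, were 0.169%.

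The sides of the hairpin differed in direction. On 5p arms, 89.1% of the shifted reads began at +1 and 4.37% at -1. On 3p arms, 57.1% began at -1 and 38.7% at +1. These totals rest on few arms, since miR-192-5p and miR-122-5p gave 71.5% of the 5p reads at +1, and miR-101a-3p and miR-101b-3p gave 85.3% of the 3p reads at -1. Counted by arm, the most frequent shift was upstream in 6 of 41 5p arms and in 17 of 42 3p arms.

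The 3p arms also had the wider spread of shares. Among arms with at least 1000 exact reads, the 66 5p arms had a median shifted share of 1.54% (quartiles 1.14% and 2.39%) and the 50 3p arms one of 3.09% (1.59% and 12.7%). Shares over 10% were found in 6 of these 5p arms and in 14 of these 3p arms. Precursors with an arm that was counted together with an identical arm of another precursor were left out of the next comparison. In 41 of the remaining precursors both arms had at least 100 exact reads. The less abundant arm had the higher shifted share in 26 of them, and the medians were 8.83% for the less abundant and 2.16% for the more abundant arms.

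**Figure D2:**
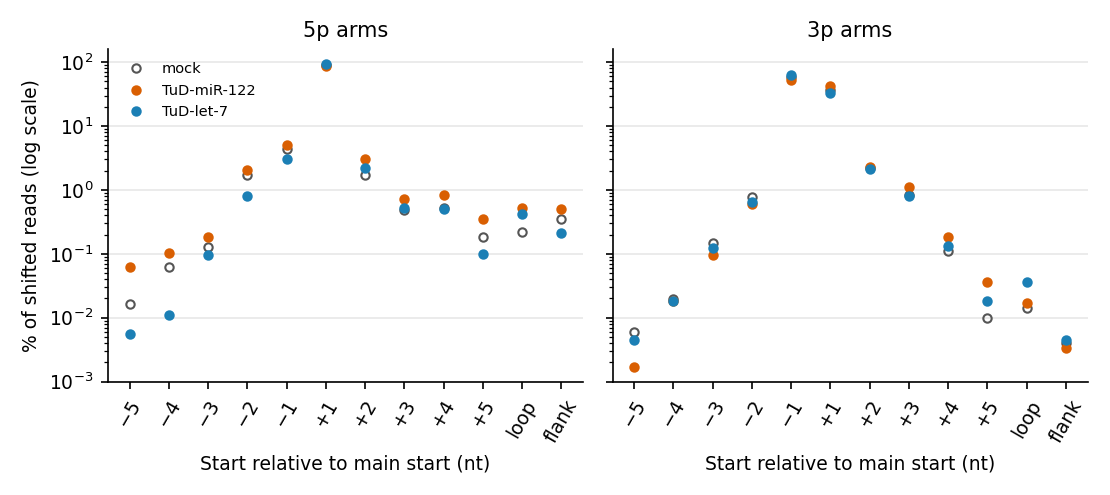
Share of all shifted reads of a library (y axis, log scale) by the distance of the start from the main start in nucleotides (x axis), for 5p arms (left) and 3p arms (right), 1 point per library. On 5p arms the class 1 nt downstream stands far above the rest, and on 3p arms the classes 1 nt upstream and 1 nt downstream are both large in each library.

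Among the abundant miRNAs with 2 common starts, the miR-101 pair came first. miR-101a-3p and miR-101b-3p are 3p arms of unlinked genes and share their main seed. Mir101b lies at chr19:29135279-29135375 (GRCm38, plus strand) in an intron of Rcl1, and Mir101a at chr4:101346945-101347027 (minus strand) in an exon of the lincRNA E130102H24Rik. For miR-101b-3p, 17670 of 71759 reads were shifted in mock (24.6%), 18647 of 71845 with TuD-miR-122 (26.0%) and 8540 of 29398 with TuD-let-7 (29.0%). For miR-101a-3p the shares were 27.6%, 31.9% and 34.9%. In both arms the order of the libraries was the same and the counting intervals did not overlap, yet the lowest and the highest library differed by less than 1.5-fold.

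RefSeq (GRCm38.p6) and these reads place the main start of miR-101b-3p differently. The RefSeq mature miR-101b-3p begins at the -1 start, and by that annotation the most frequent form here would be the shifted one. Of 347 arms with a RefSeq mature start, 331 had the same main start here. Of the 16 that differed, miR-101b-3p and miR-140-3p were among the 83 arms, and both began 1 nt downstream of the RefSeq start. Arms without a RefSeq mature start at hand were not compared, among them both arms of miR-122 and miR-133a-3p. miR-140-3p, from Mir140 in Wwp2 (chr8:107551244-107551313, plus strand), had shifted shares of 28.3% in mock, 31.2% with TuD-miR-122 and 24.7% with TuD-let-7, mainly at -1.

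miR-192-5p is a miRNA of liver and gut, here from Mir192 at chr19:6264844-6264932 (plus strand). Its +1 form held 38332 reads. Shifted shares were 30.8% (16861 of 54801 reads) in mock, 34.3% (16859 of 49213) with TuD-miR-122 and 29.3% (5328 of 18176) with TuD-let-7. The interval of TuD-miR-122, 33.8% to 34.7%, lay above the other two.

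miR-126a-3p, the endothelial miRNA encoded within Egfl7 (Mir126a, chr2:26591357-26591429, plus strand), had nearly equal shares in the 3 libraries. They were 32.7% (6066 of 18559), 32.8% (8958 of 27345) and 34.0% (2431 of 7153), and their intervals overlapped. Besides 15803 reads at +1 it had 1024 at -1 and 622 at +2.

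The arms of miR-142a, a miRNA of blood cells from Mir142 at chr11:87756864-87756927 (plus strand), were spread over several starts. On the 3p arm 879 reads began at +1, 1108 at +2 and 940 at +3. On the 5p arm 1314 began at -2 but only 28 at -1, and 553 at +1. The 3p arm was shifted in 10.9% (1138 of 10428) of mock reads, 14.5% (1439 of 9936) of TuD-miR-122 reads and 14.2% (382 of 2688) of TuD-let-7 reads, with mock below both others. The 5p arm had 34.9% (840 of 2408), 31.4% (963 of 3068) and 29.7% (170 of 573).

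Other arms with large shifted shares were less abundant. miR-10a-5p, encoded in a Hox gene cluster at chr11:96317165-96317274, was shifted in 26.1%, 27.9% and 33.2% of reads, mainly at +1. miR-203-3p, an epithelial miRNA (Mir203, chr12:112130880-112130955), was shifted in 43.7%, 43.3% and 35.8%, and the TuD-let-7 interval of 32.5% to 39.3% lay below the other two. miR-199a-3p and miR-199b-3p, which are identical and were counted together, had 711 reads at -1 and 645 at +1, with shares of 16.2%, 17.4% and 17.2%. The muscle miRNA miR-133a-3p was shifted in 42.1% (765 of 1815 reads) in mock and 40.2% (66 of 164) in TuD-miR-122. In TuD-let-7 it had 15 reads in all, of which 4 were shifted.

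Of miRNAs listed from the literature as having more than 1 start, 15 of 16 had a shifted share of at least 10%, with a median of 24.7%. The median over the 237 arms with at least 100 exact reads was 2.55%. miR-215-5p, with 1 shifted read of 50, was the exception. That list was written with earlier results of these data known.

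The highest shares belonged to entries whose reads did not gather at a start. miR-6236-5p (Mir6236, chr9:110281287-110281409, plus strand) was shifted in 93.3%, 90.7% and 90.5% of its 481, 902 and 241 reads. Its main start held 139 reads, no more than its start at +2, and it gave 370 reads of the flank class and 320 of the loop class, by far the most of any arm. miR-6240-3p was shifted in 79.4%, 76.7% and 82.5% of 63, 103 and 40 reads. The next loop counts were 15 for miR-451a-5p, 7 each for let-7f-5p, miR-122-5p and miR-6240-3p, and the next flank count was 9 for miR-101b-5p.

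Other high shares were found in entries that overlap other small RNAs or in passenger strands. miR-1843b-5p was shifted in 49.2%, 53.3% and 30.8% of reads and miR-1839-5p in 26.8%, 25.4% and 32.2%. For both arms, 100% of the reads also matched another annotated small RNA. All 332 main-start reads of miR-1843b-5p also fit the +1 start of miR-1843a-5p and were counted for miR-1843b-5p. Its shares therefore depend on that counting rule. miR-1948-5p had 54.2%, 53.5% and 61.7%. Within the imprinted Dlk1-Dio3 domain (chromosome 12), miR-136-3p was shifted in 9 of 20, 204 of 453 and 13 of 30 reads, and miR-127-5p in 7 of 13, 114 of 215 and 9 of 24. Most of these reads came from the TuD-miR-122 library.

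Several abundant arms had small shares. miR-21a-5p was shifted in 1.20% of 347157 reads in mock, 1.26% of 383012 with TuD-miR-122 and 1.11% of 100483 with TuD-let-7, and its 7298 reads at +1 still made it the seventh arm by shifted reads. In the miR-29 family, miR-29a-3p was shifted in 4.63%, 3.96% and 3.91% and miR-29b-3p in 2.77%, 2.74% and 2.66%. The most frequent shift was -1 in miR-29a-3p and +1 in miR-29b-3p, although their main seeds are identical. The lowest share of the 83 arms, 0.621%, belonged to miR-451a-5p, the erythroid miRNA whose precursor is cut by Ago2 and not by Dicer, with 0.533%, 0.697% and 0.554%.

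The target of the miR-122 decoy had the same shifted share in mock and in the library of its decoy. miR-122-5p was shifted in 1.41% (11270 of 796673 reads; 1.39 to 1.44) in mock and 1.41% (6023 of 427544; 1.37 to 1.44) with TuD-miR-122, against 1.13% (8429 of 748686; 1.10 to 1.15) with TuD-let-7. Of its 25722 shifted reads, 25418 began at +1. Its passenger strand miR-122-3p was split almost evenly between starts, with 17622 reads at the main start and 17526 at +1. The shifted shares of miR-122-3p were 50.4% (6054 of 12021), 52.8% (9826 of 18625) and 45.7% (2408 of 5264), and in TuD-miR-122 the +1 start, with 9478 reads against 8799, was the more frequent.

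The 3′ ends of miR-122-5p changed in the TuD-miR-122 library whichever start a read had. A tail is a stretch of up to 3 terminal nucleotides without a match in the precursor. Reads from the main start were tailed in 22.3% of cases in mock, 50.1% with TuD-miR-122 and 23.4% with TuD-let-7. Reads from +1 were tailed in 21.3%, 49.9% and 26.0%. Ends at position 19 or 20, counted from the main start, made up 2.26%, 18.5% and 2.07% of the reads from the main start that reached position 19, and 1.96%, 19.3% and 2.61% of those from +1.

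The rise in tailed reads was 27.9 percentage points for the main start and 28.6 for +1. In 41 arms that are not targets, the same difference between TuD-miR-122 and mock ranged from -10.1 to 6.42 points for the main start and from -13.7 to 8.06 points for the shifted form. Both forms of miR-122-5p lay outside the range of those arms.

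**Figure D3:**
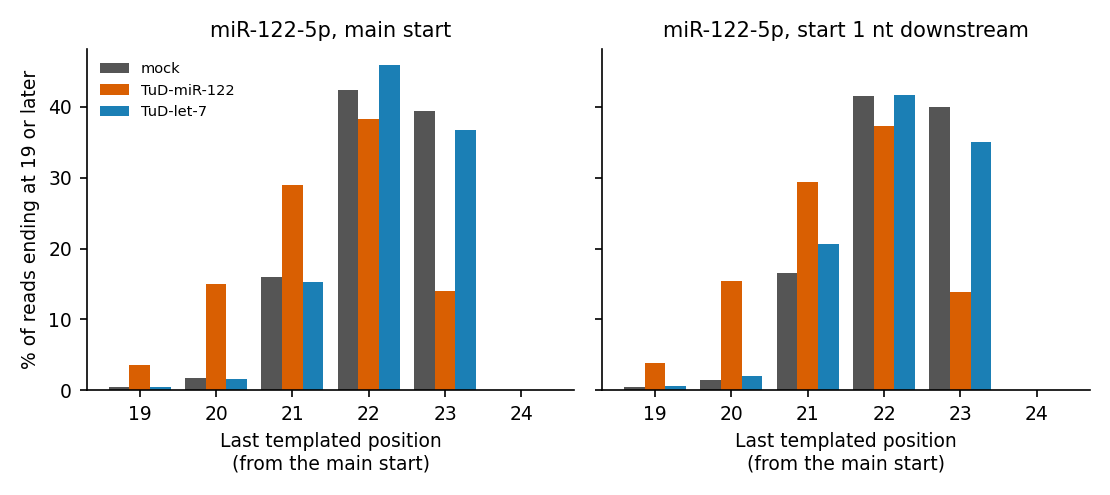
Last position of miR-122-5p reads that matches the precursor, counted from the main start (x axis), as a percentage of reads ending at position 19 or later, tails included (y axis), for reads from the main start (left) and from 1 nt downstream (right), 1 bar per library. In both panels the TuD-miR-122 library has more reads ending at 20 (15.02% and 15.4%, against 1.77% and 1.48% in mock) and fewer ending at 23 (13.99% and 13.8%, against 39.4% and 39.96%).

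The let-7 family, the target of the other decoy, is a set of guide strands with nearly the same sequence and the seed GAGGTAG. Shifted reads were rare in it. Over let-7a to let-7i and miR-98 they made up 0.953% of 229076 reads in mock, 0.985% of 257436 with TuD-miR-122 and 0.861% of 28671 with TuD-let-7. None of the 9 members reached 10%, and their median was 1.02%. The +1 form alone made up 0.815% (0.779 to 0.853), 0.851% (0.816 to 0.887) and 0.680% (0.588 to 0.782), and the interval of TuD-let-7 overlapped that of mock by a small margin only. These pooled shares also depend on the mix of members, which differed between libraries. At the main start let-7f-5p had 71299 reads in mock and 4794 in TuD-let-7, and let-7b-5p 13453 and 4291.

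Within the family, let-7a-5p stood lower in the library of its own decoy. It was shifted in 343 of 49168 reads in mock (0.698%; 0.626 to 0.775), 372 of 55546 with TuD-miR-122 (0.6697%; 0.604 to 0.741) and 8 of 3902 with TuD-let-7 (0.205%; 0.0886 to 0.404). let-7g-5p had 1.67%, 1.73% and 1.19%, and let-7f-5p 0.691%, 0.770% and 0.581%. In the other direction, let-7d-5p had 1.25%, 1.31% and 2.28%. let-7b-5p and let-7c-5p had overlapping intervals in mock and TuD-let-7, at 0.687% and 0.717% and at 0.839% and 0.947%. miR-98-5p had 11 shifted of 1041 reads in mock and 0 of 107 in TuD-let-7, where the upper limit of the interval was 3.39%.

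The tailing of let-7 could be compared between starts only with few shifted reads in TuD-let-7. In let-7c-5p, reads from the main start were tailed in 25.1% of cases in mock and 45.4% in TuD-let-7, and those from +1 in 24.2% and in 44.2% (19 of 43 reads). Both forms were also tailed more often in let-7f-5p, with 14.3% and 28.4% for the main start and 8.42% and 24.2% (8 of 33 reads) for +1, and in let-7a-5p, with 17.2% and 30.7% and with 11.5% and 50% (7 of 14 reads). let-7b-5p went the other way, with 48.0% and 36.6% for the main start and 44.4% and 30.2% (13 of 43 reads) for +1. let-7i-5p was also lower in TuD-let-7, with 57.8% and 45.4% for the main start and 59.4% and 54.8% (17 of 31 reads) for +1. In let-7g-5p, main-start reads were tailed in 21.8% in mock and 9.66% in TuD-let-7, and +1 reads in 20.02% and in 25.5% (28 of 110 reads; 17.6 to 34.6). The intervals of the +1 form overlapped between the libraries in these members except let-7a-5p. In 23 arms that are not targets, the tailed share in TuD-let-7 minus that in mock ranged from -7.06 to 7.59 points for the main start and from -6.07 to 13.5 points for the shifted form. The difference of 5.43 points for +1 in let-7g-5p lay within that range, and the -12.2 points for its main start lay below it. Family members differ by few bases, so that part of a minor member's reads can be sequencing errors of a major one.

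A comparison over all arms was made with a fixed rule. An arm was called when its shifted share differed at least 2-fold between libraries and the intervals did not overlap, with at least 100 exact reads in both libraries and 20 shifted reads over both. Between TuD-miR-122 and mock, 5 of the 77 tested arms among the 83 were higher and 0 lower, against 6.2% higher and 0% lower of all 129 arms tested. Between TuD-let-7 and mock, 5 of 68 were higher and 1 lower, against 6.32% higher, 1.05% lower and 7.37% either way of all 95 tested. Between TuD-miR-122 and TuD-let-7, 1 of 68 was higher and 0 lower, against 0.917% and 0% of 109. These counts lie near the background, and the median ratio was 1.07 for the tested arms among the 83 and 1.09 for all arms in the first comparison, and 1.03 and 1.04 in the second. The comparisons with mock share its library.

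The arms called higher against mock were miR-26a-5p, miR-26b-5p, miR-27b-3p, miR-30d-5p and miR-148a-3p in both decoy libraries. miR-26b-5p, from Mir26b in an intron of Ctdsp1 (chr1:74394310-74394394, plus strand), was shifted in 0.160% (18 of 11266 reads) in mock, 1.72% (216 of 12574) with TuD-miR-122 and 1.43% (34 of 2375) with TuD-let-7. miR-148a-3p, an abundant liver miRNA (Mir148a, chr6:51269812-51269910, minus strand), had 0.241%, 1.51% and 1.44%. miR-26a-5p had 0.277%, 1.56% and 1.29%, miR-27b-3p (Mir27b, chr13:63300712-63300784, plus strand) 0.513%, 1.86% and 2.05%, and miR-30d-5p 0.650%, 1.41% and 1.61%. In each of the 5 arms the mock library was low and the decoy libraries did not differ beyond their intervals. Of arms with fewer than 100 shifted reads, miR-92a-3p was called in both comparisons, at 0.428%, 2.73% and 2.85%, and miR-27a-3p and miR-148b-3p in TuD-miR-122. In TuD-let-7 these last had 4 and 9 shifted reads, against 1 and 7 in mock, which is under the minimum of 20 over both libraries, so that they were not compared. With tailed reads counted, miR-27a-3p was called there too.

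let-7a-5p was the arm called lower in TuD-let-7 against mock, by 3.403-fold. It was also the arm called between the decoy libraries, where TuD-miR-122 was 3.27-fold above TuD-let-7. That call does not involve the mock library.

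**Figure D4:**
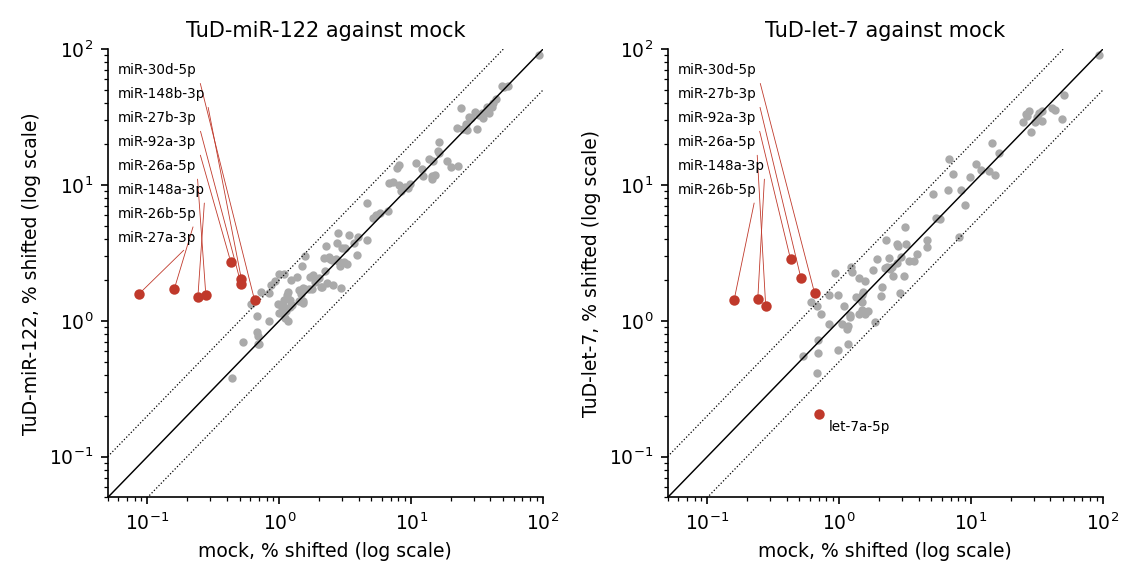
Shifted share of each arm tested in mock (x axis, log scale) and in TuD-miR-122 (left) or TuD-let-7 (right; y axis, log scale), with the line of equality and dotted lines at 2-fold; called arms are red and named. Most arms lie near the line of equality, the called arms above it have mock shares under 0.7%, and let-7a-5p lies below it in the TuD-let-7 panel.

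The low values of mock lay mainly in the +1 form. For miR-148a-3p, +1 reads numbered 5 in mock (0.0416% of the arm), 136 with TuD-miR-122 (1.27%) and 45 with TuD-let-7 (1.25%). For miR-26b-5p they numbered 6, 165 and 26, and for miR-27b-3p 7, 132 and 35. With tailed reads counted, they numbered 33, 216 and 67 for miR-27b-3p, of which 26, 84 and 32 were tailed. For miR-148a-3p they were then 6, 156 and 56, and for miR-26b-5p 9, 286 and 40. Without tails, the +2 form of miR-26b-5p had 2, 18 and 2 reads. Its +3 form, with 10, 30 and 5 reads, was less uneven. miR-27b-3p had 30, 39 and 13 reads at -1, which are 0.257%, 0.355% and 0.431% of the arm.

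Over the 48 arms with at least 1000 exact reads in each library, the +1 share of mock divided by that of both decoy libraries together had a median of 0.918. It was under 0.5 in 6 arms: miR-148a-3p (0.0330), miR-26b-5p (0.0417), miR-27b-3p (0.0502), miR-26a-5p (0.125), miR-23a-3p (0.253) and miR-30d-5p (0.432). It was over 2 in 0 arms and at most 1.38. In 5 of the 48 arms the +1 form begins with TC, namely miR-26a-5p, miR-26b-5p, miR-27b-3p, miR-23a-3p and miR-145a-5p, and 4 of these were among the 6. The exception, miR-145a-5p, had 10, 6 and 3 reads at +1 and the highest ratio of the 48, so that its mock share was not low. miR-23b-3p, whose +1 form also begins with TC but which had only 902 exact reads in TuD-let-7 and is not among the 48, had 64, 100 and 25 reads at +1, or 1.95%, 3.01% and 2.77% of the arm. The seeds of the affected +1 forms differ from each other except in miR-26a-5p and miR-26b-5p, which have the same one. Of the 6, miR-148a-3p, with the lowest ratio, has a +1 form that begins with CA, and that of miR-30d-5p begins with GT. Other arms with GT, such as miR-194-5p (0.867) and miR-30e-5p (0.909), were not under 0.5. This grouping by opening bases was made after the values were seen.

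**Figure D5:**
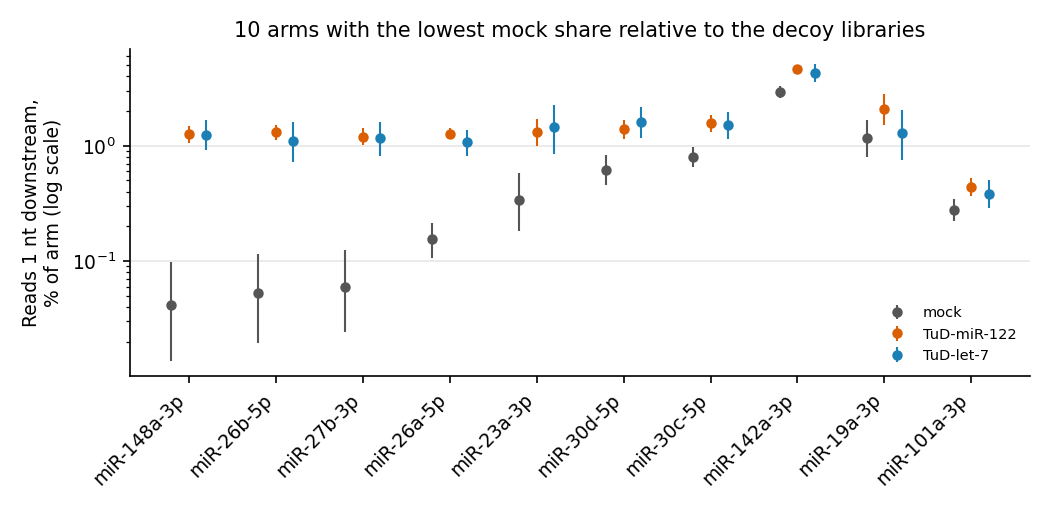
Reads starting 1 nt downstream of the main start as a percentage of the arm (y axis, log scale) for the 10 arms with the lowest mock share relative to the decoy libraries (x axis), among those with at least 1000 exact reads in each library; points are single libraries with 95% counting intervals. In the first 4 arms the mock point lies far below both decoy points, at 0.0416% against 1.27% and 1.25% for miR-148a-3p, and the gap closes to the right.

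The most frequent starts were much alike in the 3 libraries, and the shifted shares less so. Of the 83 arms, 68 had at least 100 exact reads in each library. The most frequent start was the same in each library in 66 of them, the exceptions being miR-122-3p and miR-6236-5p, and the most frequent shift in 60. The highest and lowest shares differed by less than 1.5-fold in 45. Over 79 arms with at least 300 exact reads in each library, Spearman's rho of the shares was 0.82 between mock and TuD-miR-122, 0.77 between mock and TuD-let-7 and 0.88 between the decoy libraries. An arm has the same sequence in each library, the libraries differ in depth, and arms are not independent replicates.

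Main and shifted forms differed in how often each base stood at the 5′ end, which Argonaute proteins bind. In some arms, such as miR-26b-5p and miR-27b-3p, the base was T in both forms. The main start was T in 50 of the 83 arms, A in 19, C in 12 and G in 2. The most frequent shifted start was A in 28, G in 27, T in 14 and C in 13, with the arm that has most reads on the flank not counted. These counts were not compared with the bases next to main starts in general.

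Every shifted form with at least 20 reads had another seed than its main form. There were 183 such forms with 152 distinct seeds. Of these forms, 10 had a seed equal to the main seed of another arm measured here and 38 a seed of a RefSeq mature miRNA. The 38 include the -1 forms of miR-101b-3p and miR-140-3p, which have the RefSeq seed of their own arm. How many seeds would match for arbitrary shifts was not computed, so these counts are descriptions. Seeds were compared as letters only, and no target was measured.

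Members of a family had a common shifted seed. The +1 forms of let-7g-5p (1434 reads), let-7f-5p (1031), let-7a-5p (672) and let-7c-5p (566) have the seed AGGTAGT, which RefSeq gives for miR-196a-5p and miR-196b-5p. The +1 forms of miR-29a-3p (1963 reads), miR-29b-3p (1764) and miR-29c-3p (1004) have GCACCAT, the seed of miR-767. In the miR-30 family the +1 forms of miR-30a-5p (785), miR-30e-5p (598) and miR-30c-5p (305) have TAAACAT, as miR-30f does. The -1 forms of miR-101b-3p (42272), miR-101a-3p (22022) and miR-144-3p (421) have TACAGTA, although miR-144-3p differs from the miR-101 pair in its main seed.

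Some shifted forms took the main seed of a miRNA from another gene. The +1 form of miR-122-5p, with 25418 reads, has the seed of miR-574-5p. The +1 forms of miR-101b-3p (2455 reads) and miR-101a-3p (263) have that of miR-101c-3p. The -1 form of miR-133a-3p (802) has that of miR-133b-3p, and the +1 form of miR-378a-3p (756) that of miR-378b-3p. Reads that fit both a shifted form and the main start of the other arm were counted for that main start. They numbered 274 for miR-101a-3p with miR-101c-3p, 106 for miR-133a-3p with miR-133b-3p and 44 for miR-378a-3p with miR-378b-3p. The arms of these pairs were therefore not fully separate. No RefSeq mature start was at hand for miR-122-5p, miR-133a-3p or miR-378a-3p. Whether a shifted form of these arms has the annotated start of its own arm was therefore not checked. By RefSeq, the +1 form of miR-21a-5p (7298) has the seed of miR-3965 and the -2 form of miR-142a-5p (1314) that of miR-142b. The +1 form of miR-192-5p, the +1 form of miR-126a-3p and the +2 form of miR-142a-3p matched no seed of RefSeq or of another arm.

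The 3′ ends mostly stayed where they were when the start moved. In 61 of 82 arms compared, the most frequent last matching position was the same for the main and the most frequent shifted form, so that the shifted read was shorter or longer by the shift. In 18 arms it moved in the direction of the start and in 3 against it. miR-192-5p was among the 18. Its main form ended most often at position 21 and its +1 form at position 24, and the shifted reads were on average longer, at 22.2 nt against 20.9 nt. miR-101b-3p moved from 22 to 20 in the -1 form, with mean lengths of 21.2 nt and 21.4 nt.

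Tails did not go with a shifted start in a uniform way. In mock, 53 arms had at least 100 reads of the shifted form, tails included. The shifted form was tailed more often, with intervals apart, in 15 and less often in 10, and the median difference was 0.497 percentage points. miR-142a-3p was among the former, with 5.81% of the main reads and 45.1% of the +2 reads tailed in mock, 8.31% and 43.9% with TuD-miR-122, and 12.0% and 39.1% with TuD-let-7. miR-203-3p had 25.9% and 52.9% in mock, and miR-10a-5p 6.19% and 26.7%. miR-192-5p was among the latter, with 36.03% of main reads and 26.4% of +1 reads tailed, and miR-101a-3p had 34.0% and 17.8%.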

How the data were processed

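The deposited files list each distinct insert of a library with its read count. These are raw counts made by the authors, not normalised, in 3 libraries of 15 to 30 nt inserts. Per the labels' protocols, RNAs of 18 to 30 nt were gel-purified from total liver RNA. How adapters were removed, any filter, an aligner or a build: not given in the sources used here. No molecular identifiers were present, so PCR copies count as reads.

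Inserts of at least 18 nt were matched exactly to the 1174 miRNA precursors of GENCODE mouse release 21 (GRCm38). An arm is one side of a precursor, and its main start needed at least 10 reads over the libraries summed. Arms whose first 21 nt from the main start were identical were merged. A read at the main start of one arm that is a shifted read of another counted for the former. Reads at several main starts (2102 in mock, 1605 with TuD-miR-122 and 993 with TuD-let-7), shifted reads of several arms (15, 14 and 10) and reads on a side without a main start (400, 547 and 168) were left out. Shifts of 1 to 5 nt were classed singly. Tails were counted after at least 18 matching nt. Mature names, starts and seeds are from RefSeq (GRCm38.p6), matched for 1007 precursors.

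With 1 library per group no test was made. The members and lists were chosen with earlier results of these data known. Arms were named by rule: decoy targets, the 10 with most shifted reads, the 8 highest shares, the 5 highest and lowest called per comparison, the 5 with most loop or flank reads, shifted forms with another arm's seed, the 3 on each side of the limit, and up to 4 per list. Further arms named for tails, shared seeds, opening bases or the Dlk1-Dio3 cluster were chosen after their values were seen. Alternatives were other length limits, starts, read minimums, folds and tails. The code was tested on simulated data. Python 3.11.15, NumPy 2.4.6, SciPy 1.17.1 and matplotlib 3.10.9 were used.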

Additional observations from a re-analysis of the deposited data

How the results depend on the processing

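No paired analysis was possible because each group had 1 library. The shifted share of all exact reads (4.21% in mock, 5.16% with TuD-miR-122 and 3.42% with TuD-let-7) was 4.10%, 5.01% and 3.35% with inserts of at least 20 nt, 4.18%, 5.13% and 3.38% without inserts read once in a library, 5.96%, 7.07% and 4.55% with RefSeq starts, 4.50%, 5.09% and 3.66% with tailed reads counted, and 5.81%, 6.23% and 7.51% without miR-122-5p, the one alternative that changed the order of the libraries. The 83 arms were 79 to 99 under the other read definitions, 121 at a minimum of 50 shifted reads and 61 at 200. With a fold of 1.5, 12 arms in place of 7 were called between TuD-let-7 and mock. Between the decoy libraries 1 arm was called, 2 with inserts of at least 20 nt, 4 without inserts read once, 2 with tailed reads counted and 4 with a fold of 1.5. let-7a-5p was among the arms called in both comparisons with TuD-let-7 under every alternative run. miR-26a-5p, miR-26b-5p, miR-27b-3p, miR-92a-3p and miR-148a-3p were called against mock in both decoy libraries under every alternative run, and miR-30d-5p in all but 1, TuD-miR-122 with tailed reads counted. miR-27a-3p was called in TuD-let-7 with tailed reads counted and was not called in TuD-miR-122 with inserts of at least 20 nt. Of 168 values of named arms, 24 left their counting interval with tailed reads counted and 19 with inserts of at least 20 nt. The cause of these changes was not tested. Depth limited the shifted forms in TuD-let-7, the shallowest library, where let-7a-5p had 8 shifted reads.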

Other observations

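Inserts of 15 to 17 nt, which were too short for the main counts, began elsewhere than the main start far more often. Of 548 such reads on arms in mock, 207 were shifted by 1 to 5 nt (37.8%; 33.7 to 42.0). In TuD-miR-122 it was 415 of 1118 (37.1%; 34.3 to 40.03) and in TuD-let-7 78 of 214 (36.4%; 30.0 to 43.3). Shifts of the same size made up 4.20%, 5.14% and 3.41% of the reads of at least 18 nt. The 3 libraries did not differ beyond their counting intervals in the short inserts. Such reads match more places in a genome by chance than longer ones do, and the part of this was not tested.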
